A study of Homo sapiens with 27 samples.

Results

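The 10 genes described here decide whether a cell in G1 goes on to copy its DNA. They are the D-type cyclins CCND1, CCND2 and CCND3, the E-type cyclins CCNE1 and CCNE2, the kinases CDK2, CDK4 and CDK6, the retinoblastoma gene RB1 and the transcription factor gene E2F1. They were found by their symbols among the 60534 Ensembl gene IDs shared by all count files, and all 10 passed the filter on low counts in RNA-seq and in ribosome profiling.

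The data are 13 RNA-seq and 14 ribosome profiling (Ribo-seq) libraries of IMR90, a human lung fibroblast line of fetal origin that divides for a limited time in culture. Ribo-seq sequences the stretches of mRNA that ribosomes shield from RNase, called footprints. The libraries covered 5 states. Cycling cells were untreated and harvested at 40 to 60% confluency. Quiescent cells had stopped dividing by contact inhibition. Irradiated cells were made senescent with 15 Gy of ionizing radiation and taken 10 days later. Etoposide cells were made senescent with 3 rounds of 50 µM etoposide, a topoisomerase II poison that breaks DNA, over 10 days. Thapsigargin cells were cycling cells exposed for 3 h to 25 nM of this inhibitor of the calcium pump of the endoplasmic reticulum. Each state had 3 libraries per assay, except for 2 in cycling RNA-seq and 2 per assay with thapsigargin. The labels give a wild-type genotype for every state but thapsigargin, where no genotype is given. All cells grew with 10% serum. Everything comes from the IMR90 line, and the labels do not say whether the replicates of a state were separate cultures, so the p-values measure the spread between these libraries, which may be technical.

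In G1, growth signals raise the D-type cyclins, which bind CDK4 or CDK6 and phosphorylate the RB1 protein. Phosphorylated RB1 releases E2F factors, which switch on the genes of DNA synthesis and also E2F1 and the E-type cyclins, whose partner CDK2 phosphorylates RB1 further. The INK4 inhibitors (such as p16 and p15) block CDK4 and CDK6, p21 blocks CDK2 complexes, and fibroblasts that enter senescence are known for a raised p21 and an RB1 protein kept in its E2F-binding form.

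Counts in genes, given in units of 1e6, totalled 20.6 to 57.1 per RNA-seq library and 1.94 to 20.0 per Ribo-seq library, with the thapsigargin Ribo-seq libraries the shallowest. Levels of 10 fibroblast markers summed to 11056 to 18134 CPM (counts-per-million) in RNA-seq, while 10 markers of epithelial, endothelial and blood cells summed to 0.817 to 3.81 CPM. These sums are shares of all counts in the shared gene IDs, without TMM scaling. KRT5, SFTPC and CD68, taken as basal, alveolar and macrophage markers, were at or near 0 in every library. They were the lowest of the 10 markers of epithelial, endothelial and blood cells, and others were detected. In RNA-seq, VWF reached 2.34, EPCAM 0.754, PTPRC 0.663 and LYZ 0.413 CPM, also unscaled. The thapsigargin libraries stood apart: 1.35 to 1.40% of their RNA-seq reads were unmapped, against 27.9 to 40.6% in the other states. Of their Ribo-seq reads, 65.2 and 66.9% were multimapped, against 19.8 to 31.9% in the other states. Their growth medium was described without antibiotics, and their Ribo-seq counts used a longer gene list than the other Ribo-seq libraries. For them, the effect of the drug and of these differences cannot be told apart. Values below are CPM after TMM scaling, except for summed markers, which are unscaled. Changes are log2 fold changes ± SE. A gene was called when its adjusted p in edgeR's quasi-likelihood F test was under 0.05. Gene lengths were not at hand, so levels are compared between states and not between genes. In bulk RNA, fewer cells that express a gene and less RNA in each cell cannot be told apart.

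Both kinds of senescent cells changed most of the 10 genes, and the changes went both ways. After irradiation, CCND1, CCND2, CCND3, CCNE1 and CDK6 rose and CCNE2, CDK2 and E2F1 fell at the mRNA level, which is 8 of 10 called where 35.0% of the 13194 genes tested were called (16.2% higher and 18.8% lower). After etoposide the same 8 genes moved the same way and CDK4 fell too, 9 of 10 against 34.6% (16.8% higher and 17.8% lower). Quiescent cells showed a shorter version: CCND1, CCND2 and CDK6 rose and CDK2 and E2F1 fell, 5 of 10 against 15.6% (5.20% higher and 10.4% lower). With thapsigargin only CCND1 and CCND3 were called, both higher, 2 of 10 against 24.6% (11.8% higher and 12.8% lower). These comparisons share the 2 cycling libraries and are therefore not independent of each other.

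The RNA counts for quiescent cells became smaller when single libraries were left out. Of the 5 calls, 2 were left without cycling replicate 1, 3 without cycling replicate 2 and 3 without quiescent replicate 2. The thapsigargin count of 2 became 1 without cycling replicate 2. For irradiated cells 7 or 8 genes and for etoposide cells 8 genes were called whichever library was left out.

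Footprints gave a similar picture. In irradiated cells 5 of the 10 genes were higher and 2 lower, with 39.8% of 11687 genes called (17.3% higher and 22.5% lower); E2F1 was the gene called in RNA but not in footprints. In etoposide cells 5 were higher and 4 lower, against 34.2% (16.5% higher and 17.7% lower). In quiescent cells 3 were higher and 1 lower, against 21.7% (7.12% higher and 14.6% lower), and 2 calls were left without cycling replicate 2. With thapsigargin 3 were higher and 1 lower, against 44.4% of all genes (20.0% higher and 24.4% lower), and 2 calls were left without thapsigargin replicate 1.

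**Figure D1:**
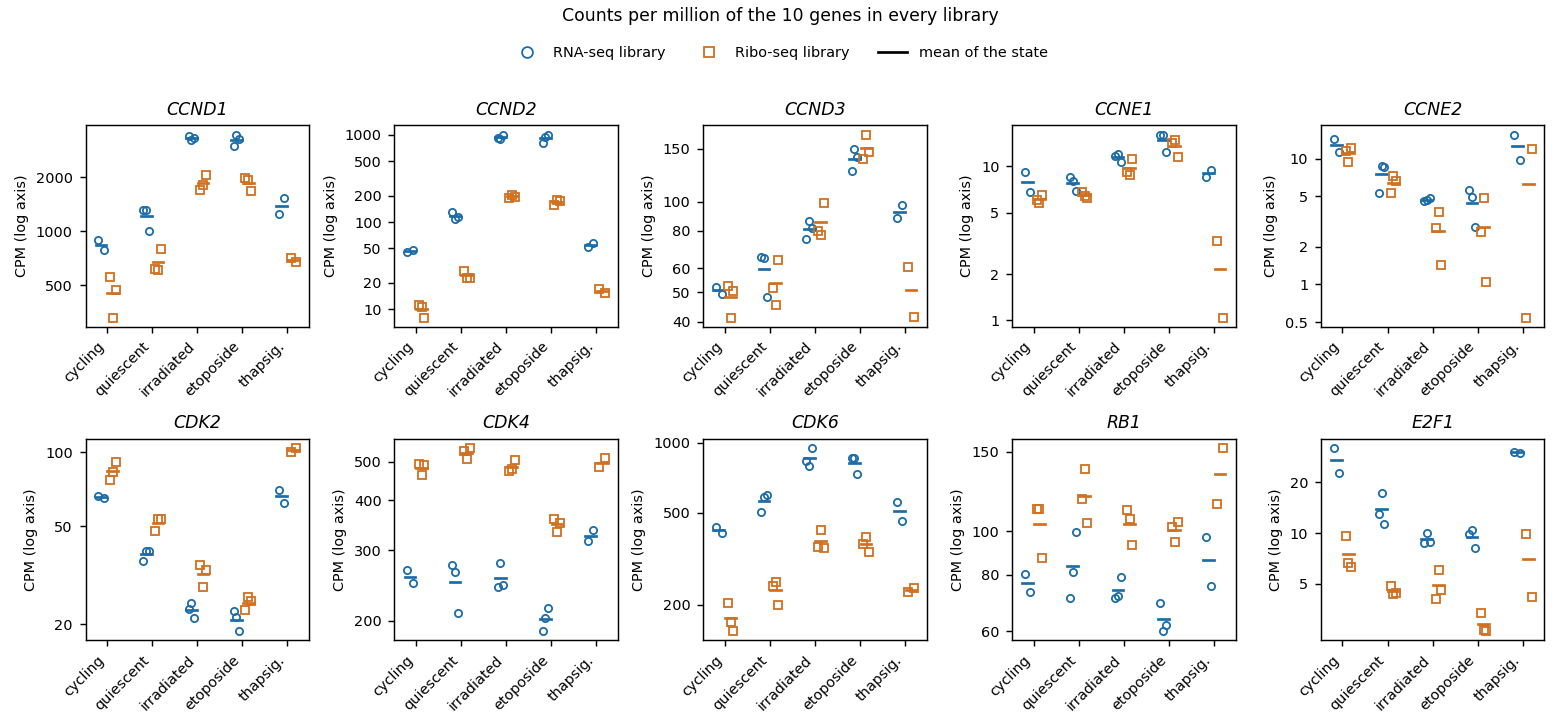
CPM (log axis, a scale of its own for each gene) of the 10 genes in every library, with RNA-seq as circles, Ribo-seq as squares and short lines at the mean of each state. In RNA-seq CCND2 goes from about 46.5 CPM in cycling to 935 CPM in irradiated libraries and CDK2 from 65.9 to 22.9 CPM. RB1 stays between 59.9 and 99.4 CPM in all RNA-seq libraries.

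CCND2 changed most of the 10. Cyclin D2 (ENSG00000118971, chr12:4273762-4305353 in GRCh38.p14) is a D-type cyclin that activates CDK4 and CDK6. Its mRNA stood at 45.3 and 47.8 CPM in the cycling libraries. It was 130.2, 109.5 and 113 CPM in quiescent cells, 916, 888 and 1001 CPM after irradiation, 799, 947 and 1006 CPM after etoposide, and 51.1 and 56.7 CPM with thapsigargin. Every quiescent library was above every cycling one, and every senescent library was far above every quiescent one, while the irradiated and etoposide libraries overlapped. The log2 change from cycling was 1.34 ± 0.13 in quiescent cells (adjusted p = 0.00019), 4.33 ± 0.15 after irradiation (adjusted p = 3.2e-09) and 4.30 ± 0.15 after etoposide (adjusted p = 2.9e-09). That is a rise of 20.1-fold and 19.7-fold in the senescent states, exceeded by 0.394% and 0.796% of the genes tested. From quiescent cells the step up was 2.99 ± 0.12 after irradiation (adjusted p = 9.1e-09) and 2.96 ± 0.12 after etoposide (adjusted p = 1.4e-08).

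Footprints on CCND2 followed the mRNA, from 11.2, 10.6 and 8.02 CPM in cycling cells to 27.5, 22.9 and 22.8 CPM in quiescent, 191, 206 and 193 CPM in irradiated and 157, 178 and 176 CPM in etoposide libraries. No library of a senescent state overlapped with a quiescent or cycling one. With thapsigargin the footprints were 16.9 and 15.2 CPM, above every cycling library, at 0.68 ± 0.19 (adjusted p = 0.011), while the mRNA change of 0.21 ± 0.14 was not called (adjusted p = 0.29). The footprint call rests on 31 and 29 counts and was lost without thapsigargin replicate 1 (0.62, adjusted p = 0.089).

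CCND1 was higher than in cycling cells in every other state. Cyclin D1 (ENSG00000110092, chr11:69641156-69654474) is the D-type cyclin best known as a sensor of growth signals. Its mRNA was 898 and 784 CPM in cycling cells, 1314, 1310.5 and 999 CPM in quiescent cells, 3409, 3235 and 3293 in irradiated, 2986, 3448 and 3246 in etoposide, and 1239.6 and 1529 CPM in thapsigargin libraries. All quiescent libraries exceeded the cycling ones, the senescent libraries formed a separate and higher group, and quiescent and thapsigargin libraries overlapped. The change was 1.98 ± 0.15 after irradiation (adjusted p = 6.3e-07), 1.94 ± 0.15 after etoposide (adjusted p = 5.0e-07), 0.72 ± 0.16 with thapsigargin (adjusted p = 0.0049) and 0.52 ± 0.14 in quiescent cells (adjusted p = 0.025).

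The quiescent call of CCND1 was the weakest. It was lost without cycling replicate 1 or 2 or quiescent replicate 1 or 2, at changes of 0.43 to 0.62 and adjusted p from 0.063 to 0.21. The thapsigargin call was lost without cycling replicate 2 (0.62, adjusted p = 0.065). CCND1 footprints were 553, 331 and 471 CPM in cycling cells, 618, 612 and 797 CPM in quiescent cells, 1693, 1799 and 2049.5 in irradiated, 1978, 1940 and 1667 in etoposide, and 714 and 673 CPM in thapsigargin libraries, again with the senescent libraries apart from all others. All 4 states were called, at 0.58 ± 0.16, 2.03 ± 0.17, 2.04 ± 0.17 and 0.62 ± 0.18 (adjusted p = 0.019, 8.1e-07, 5.6e-07 and 0.013). The first was lost without cycling replicate 2 (0.42, adjusted p = 0.054) or quiescent replicate 3 (0.45, adjusted p = 0.066), and the last without thapsigargin replicate 1 (0.59, adjusted p = 0.071).

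CCND3 separated the senescent states. Cyclin D3 (ENSG00000112576, chr6:41934933-42050035), the remaining D-type cyclin, stood at 52.2 and 49.4 CPM of mRNA in cycling and 65.6, 65.2 and 48.1 CPM in quiescent libraries, which overlapped. It reached 75.3, 86.0 and 81.6 CPM after irradiation and 126, 149 and 140.3 CPM after etoposide, with no overlap between them. With thapsigargin it was 88.0 and 97.1 CPM, above all cycling libraries. The change from cycling was 0.67 ± 0.14 after irradiation (adjusted p = 0.0026), 1.45 ± 0.15 after etoposide (adjusted p = 6.6e-06) and 0.87 ± 0.16 with thapsigargin (adjusted p = 0.0014); that in quiescent cells, 0.23 ± 0.14, was not called (adjusted p = 0.32). Irradiated cells had less CCND3 mRNA than etoposide cells by a log2 difference of -0.78 ± 0.13 (adjusted p = 0.00085).

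CCND3 footprints repeated this split, with 52.6, 41.3 and 50.4 CPM in cycling cells, 51.5, 45.4 and 64.1 CPM in quiescent cells, 79.9, 77.6 and 98.97 in irradiated and 138, 167 and 146 CPM in etoposide libraries. The irradiated libraries lay above all cycling and below all etoposide ones. Irradiated cells were lower than etoposide cells by -0.82 ± 0.16 (adjusted p = 0.0034). With thapsigargin the footprints, 60.6 and 41.3 CPM, overlapped with cycling (0.08 ± 0.20, adjusted p = 0.76), unlike the mRNA.

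CDK6 moved with the D-type cyclins and CDK4 did not. Both kinases (CDK6, ENSG00000105810, chr7:92604921-92836573; CDK4, ENSG00000135446, chr12:57747727-57752310) are active only when bound to a D-type cyclin. CDK6 mRNA was 432 and 407 CPM in cycling cells, 502, 582 and 597 CPM in quiescent cells, 837, 792 and 945 in irradiated, 863, 857 and 736 in etoposide, and 556 and 461 CPM in thapsigargin libraries. Every library of the other states was above both cycling ones, and the senescent libraries above all the rest. The change was 1.03 ± 0.13 after irradiation (adjusted p = 5.9e-05) and 0.97 ± 0.13 after etoposide (adjusted p = 9.5e-05). In quiescent cells it was 0.42 ± 0.13 (adjusted p = 0.046). That call was lost without either cycling library or quiescent replicate 2 or 3 (0.37 to 0.46, adjusted p from 0.081 to 0.25), and its adjusted p was 0.051 with RLE scaling.

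CDK6 footprints were 205, 169 and 154 CPM in cycling cells, 241, 252 and 199 CPM in quiescent cells, 355, 419 and 354 in irradiated and 368, 391 and 337 CPM in etoposide libraries. The senescent libraries lay above all others, and the quiescent range touched the cycling range. They rose by 1.10 ± 0.12 after irradiation (adjusted p = 1.5e-05) and 1.05 ± 0.12 after etoposide (adjusted p = 1.9e-05). The smaller rises in quiescent cells (0.39 ± 0.12, adjusted p = 0.034) and with thapsigargin (226 and 236 CPM, 0.40 ± 0.14, adjusted p = 0.033) lost their calls when single libraries were left out. For quiescent cells these were cycling replicate 2 or 3 and quiescent replicate 1 or 2 (0.33 to 0.38, adjusted p from 0.060 to 0.12). For thapsigargin they were cycling replicate 2 or 3 and either thapsigargin library (0.34 to 0.44, adjusted p from 0.069 to 0.097).

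CDK4 mRNA lay in a narrow band in cycling (268 and 248 CPM), quiescent (276, 265 and 209.6 CPM) and irradiated cells (243, 279.5 and 246 CPM), which overlapped. The difference from cycling was -0.04 (95% interval -0.30 to 0.21, from a normal approximation) in quiescent and -0.01 (-0.26 to 0.24) in irradiated cells. Etoposide libraries, at 188, 203 and 216 CPM, were all below the cycling ones, by -0.35 ± 0.13 (adjusted p = 0.048). This small fall lost its call without any single one of the cycling and etoposide libraries (-0.41 to -0.29, adjusted p from 0.075 to 0.24) and with DESeq2 (adjusted p = 0.051). In footprints the fall was clearer. They were 493, 463 and 489 CPM in cycling, 531, 507 and 539.7 CPM in quiescent and 359.7, 333 and 352 CPM in etoposide cells, with no overlap between etoposide and the others, a change from cycling of -0.47 ± 0.07 (adjusted p = 0.00021). Irradiated libraries, at 473, 478 and 506 CPM, overlapped with cycling and lay above etoposide by 0.48 ± 0.07 (adjusted p = 0.00078). With thapsigargin CDK4 mRNA was 316 and 337 CPM (0.34 ± 0.14, adjusted p = 0.099) and footprints 484 and 511 CPM (0.05 ± 0.08, adjusted p = 0.67).

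The RefSeq promoter table (GRCh38.p14) had windows for 6 of the 10 genes; CCND1, CCND2, CCNE2 and CDK2 had none. Some windows belong to starts inside the gene: the RB1 window (chr13:48476200-48476449), those of CCND3, and the CDK6 window at chr7:92833960-92834209. For RB1 and CCND3 the bases before the outermost gene start were therefore not searched. Only the 250 bases before each listed start were used. They were searched on both strands for the E2F motifs TTTCGCGC, TTTGGCGC and TTTCCCGC, which 2.32% of 35116 windows hold, and for the E-box CACGTG, bound by MYC and related factors, which 6.35% hold at least once. CDK4 is shown because it has 3 E-boxes (in capitals), where 0.535% of windows have 2 or more. Its window is chr12:57752311-57752560 on the minus strand, printed 5′ to 3′.
CDK4: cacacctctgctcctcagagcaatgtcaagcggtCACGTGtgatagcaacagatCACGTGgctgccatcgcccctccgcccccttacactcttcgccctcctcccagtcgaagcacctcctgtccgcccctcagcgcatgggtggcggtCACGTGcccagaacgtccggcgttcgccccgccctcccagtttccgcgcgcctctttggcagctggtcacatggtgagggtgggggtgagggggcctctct
A match is a string of letters and not a measured binding site.

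The E-type cyclins moved in opposite directions. Cyclin E1 and cyclin E2 (CCNE1, ENSG00000105173, chr19:29811991-29824312; CCNE2, ENSG00000175305, chr8:94880224-94896693) both bind CDK2 at the start of S phase. CCNE1 mRNA was 9.15 and 6.76 CPM in cycling cells, 8.51, 7.98 and 6.91 CPM in quiescent cells, 11.6, 11.95 and 10.7 in irradiated, 16.01, 15.9 and 12.3 in etoposide and 8.53 and 9.43 CPM in thapsigargin libraries. The senescent libraries were the highest, etoposide above irradiated, and the other states overlapped. CCNE1 rose by 0.88 ± 0.18 after etoposide (adjusted p = 0.0024) and by 0.51 ± 0.18 after irradiation (adjusted p = 0.044). The irradiation call was lost without cycling replicate 2 or any irradiated library (0.32 to 0.57, adjusted p from 0.061 to 0.34), and without the filter on low counts (adjusted p = 0.063).

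CCNE1 footprints were 6.02, 5.78 and 6.52 CPM in cycling cells, 6.78, 6.42 and 6.26 CPM in quiescent cells, 9.15, 8.71 and 11.2 in irradiated and 14.04, 14.8 and 11.5 CPM in etoposide libraries, the senescent libraries again the highest. The rise was 1.14 ± 0.22 after etoposide (adjusted p = 0.0011) and 0.66 ± 0.23 after irradiation (adjusted p = 0.034); leaving out any one of the cycling and irradiated libraries ended the latter call (0.58 to 0.75, adjusted p from 0.050 to 0.11). With thapsigargin the footprints were 3.27 and 1.05 CPM, which are 6 and 2 counts, below every cycling library (-1.50 ± 0.40, adjusted p = 0.0085). That call was lost without thapsigargin replicate 2 (-0.88, adjusted p = 0.17).

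CCNE2 mRNA fell from 14.3 and 11.2 CPM in cycling to 4.64, 4.66 and 4.85 CPM in irradiated and 5.61, 4.97 and 2.84 CPM in etoposide libraries. These did not overlap with cycling, and the change was -1.44 ± 0.29 after irradiation (adjusted p = 0.0019) and -1.52 ± 0.29 after etoposide (adjusted p = 0.0013). Quiescent libraries, at 5.36, 8.74 and 8.65 CPM, were below cycling too, but the change of -0.75 ± 0.29 was not called (adjusted p = 0.10). Footprints were 11.5, 9.46 and 12.2 CPM in cycling cells, 5.36, 7.23 and 6.62 CPM in quiescent cells, 2.81, 3.79 and 1.43 in irradiated and 2.63, 4.84 and 1.04 CPM in etoposide libraries, and neither senescent state overlapped with cycling or quiescent cells. They fell by 2.06 ± 0.58 on the log2 scale after irradiation (adjusted p = 0.012) and by 1.93 ± 0.53 after etoposide (adjusted p = 0.012). These calls were lost without irradiated replicate 3 (-1.76, adjusted p = 0.061) and without etoposide replicate 3 (-1.55, adjusted p = 0.059). With thapsigargin the mRNA was 15.5 and 9.76 CPM, while the footprints were 0.546 and 12.03 CPM, which are 1 and 23 counts. Replicates this far apart give no level for that state, and the change without replicate 2 was -4.29, called. Of all RNA-seq counts in the CCNE2 gene, 29.2% were on the opposite strand (at most 1.87% in the other 9 genes); these were not used.

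CDK2 fell in all 3 arrested states. This kinase (ENSG00000123374, chr12:55966830-55972789) drives S-phase entry with the E-type cyclins. Its mRNA was 66.7 and 65.2 CPM in cycling cells. It was 36.1, 39.8 and 39.6 CPM in quiescent, 23.2, 24.4 and 21.2 CPM in irradiated, 22.6, 21.4 and 18.8 CPM in etoposide, and 70.1 and 62.3 CPM in thapsigargin libraries. Quiescent libraries lay below all cycling ones and senescent libraries below all quiescent ones, with irradiated and etoposide overlapping. CDK2 fell by 0.78 ± 0.12 in quiescent cells (adjusted p = 0.0013), by 1.52 ± 0.12 after irradiation (adjusted p = 8.7e-07) and by 1.66 ± 0.12 after etoposide (adjusted p = 2.7e-07). The drop from quiescent to irradiated cells was -0.75 ± 0.11 (adjusted p = 0.00046) and that to etoposide cells -0.88 ± 0.11 (adjusted p = 4.7e-05). Thapsigargin libraries overlapped with cycling (0.01 ± 0.13, adjusted p = 0.98).

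CDK2 footprints went from 77.5, 82.7 and 91.0 CPM in cycling to 47.8, 53.8 and 53.7 in quiescent, 35.0, 28.4 and 33.2 in irradiated and 22.8, 25.7 and 24.9 CPM in etoposide libraries. No 2 of these states overlapped. The falls from cycling were -0.69 ± 0.11, -1.37 ± 0.12 and -1.77 ± 0.12 (adjusted p = 0.00088, 1.1e-06 and 5.9e-08). Irradiated cells kept more CDK2 footprints than etoposide cells, by 0.40 ± 0.12 (adjusted p = 0.028). That call was lost without irradiated replicate 1 or 3 or any etoposide library (0.33 to 0.44, adjusted p from 0.054 to 0.14). With thapsigargin the footprints, at 100.4 and 104 CPM, were above all cycling libraries without reaching a call (0.28 ± 0.13, adjusted p = 0.080).

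RB1 was the 1 gene of the 10 with no called change from cycling in either assay. It encodes the retinoblastoma protein (ENSG00000139687, chr13:48303751-48481890), which holds E2F factors inactive and is controlled mostly by phosphorylation, a step that neither assay measures. Its mRNA was 80.3 and 73.3 CPM in cycling cells, 70.9, 81.1 and 99.4 CPM in quiescent cells, 70.9, 71.6 and 79.2 in irradiated, 69.3, 59.9 and 61.7 in etoposide, and 97.0 and 75.5 CPM in thapsigargin libraries. Quiescent, irradiated and thapsigargin libraries overlapped with cycling, and the etoposide libraries lay just below. Footprints with thapsigargin (115 and 153 CPM) were, however, called at 0.57 without thapsigargin replicate 1. The log2 difference of mRNA from cycling was -0.06 (95% interval -0.35 to 0.24) after irradiation and -0.27 (-0.57 to 0.03) after etoposide. Footprints lay between 87.1 and 137 CPM in all cycling, quiescent and senescent libraries, and differed from cycling by 0.00 (-0.27 to 0.27) after irradiation and -0.05 (-0.32 to 0.23) after etoposide. Etoposide cells had less RB1 mRNA than quiescent cells (-0.40 ± 0.14, adjusted p = 0.031). This call was lost without quiescent replicate 3 or etoposide replicate 2 or 3 (-0.36 to -0.26, adjusted p from 0.093 to 0.13).

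E2F1 fell with CDK2. This transcription factor (ENSG00000101412, chr20:33675477-33686385) activates DNA synthesis genes when RB1 lets go of it. Its mRNA was 31.8 and 22.8 CPM in cycling cells, 12.9, 17.3 and 11.3 CPM in quiescent cells, 8.74, 10.0 and 8.83 in irradiated, 9.81, 10.5 and 8.14 in etoposide, and 30.2 and 30.0 CPM in thapsigargin libraries. Cycling and thapsigargin libraries overlapped at the top, quiescent libraries lay below them, and both senescent states lay below quiescent and overlapped with each other. The change was -0.98 ± 0.19 in quiescent cells (adjusted p = 0.0046), -1.57 ± 0.20 after irradiation (adjusted p = 4.3e-05) and -1.53 ± 0.20 after etoposide (adjusted p = 4.8e-05). Without cycling replicate 1, the higher of the pair, the quiescent change was -0.72 and no longer called (adjusted p = 0.10). E2F1 footprints were few, 638 counts over all libraries. They were 9.55, 6.65 and 6.31 CPM in cycling cells, 4.84, 4.34 and 4.41 CPM in quiescent cells, 4.05, 6.06 and 4.58 in irradiated and 3.34, 2.65 and 2.61 CPM in etoposide libraries, so that all arrested libraries were below all cycling ones. Only etoposide was called (-1.38 ± 0.30, adjusted p = 0.0027). The changes of -0.72 ± 0.26 in quiescent cells (adjusted p = 0.064) and -0.65 ± 0.30 after irradiation (adjusted p = 0.10) were not. The thapsigargin libraries, at 9.82 and 4.18 CPM, lay on both sides of the cycling ones.

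E2F1 and CCNE1, both textbook E2F targets, are shown side by side because their mRNAs went opposite ways. The 250 bases before the E2F1 start (chr20:33686386-33686635, minus strand) hold TTTGGCGC at bases 231 to 238, close to the gene start. The window of CCNE1 (chr19:29811741-29811990, plus strand) holds none of the 3 E2F strings, which says only that these letters are not in it. The windows of CCND3, CDK4, CDK6 and RB1 hold none either, and only 2.32% of all windows do. Whether the motif bears on the mRNA changes was not tested. Motif matches are in capitals, and the windows of E2F1 and CCNE1 are printed 5′ to 3′.
E2F1: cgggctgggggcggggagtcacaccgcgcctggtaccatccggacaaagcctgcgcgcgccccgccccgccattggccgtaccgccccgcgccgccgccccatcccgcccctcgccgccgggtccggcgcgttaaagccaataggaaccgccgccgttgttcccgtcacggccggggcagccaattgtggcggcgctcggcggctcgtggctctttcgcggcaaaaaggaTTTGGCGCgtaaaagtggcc
CCNE1: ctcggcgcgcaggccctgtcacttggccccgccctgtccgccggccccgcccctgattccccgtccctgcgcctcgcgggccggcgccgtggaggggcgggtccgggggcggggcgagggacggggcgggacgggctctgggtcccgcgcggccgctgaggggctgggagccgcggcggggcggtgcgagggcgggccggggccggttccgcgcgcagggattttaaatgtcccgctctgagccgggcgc

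**Figure D2:**
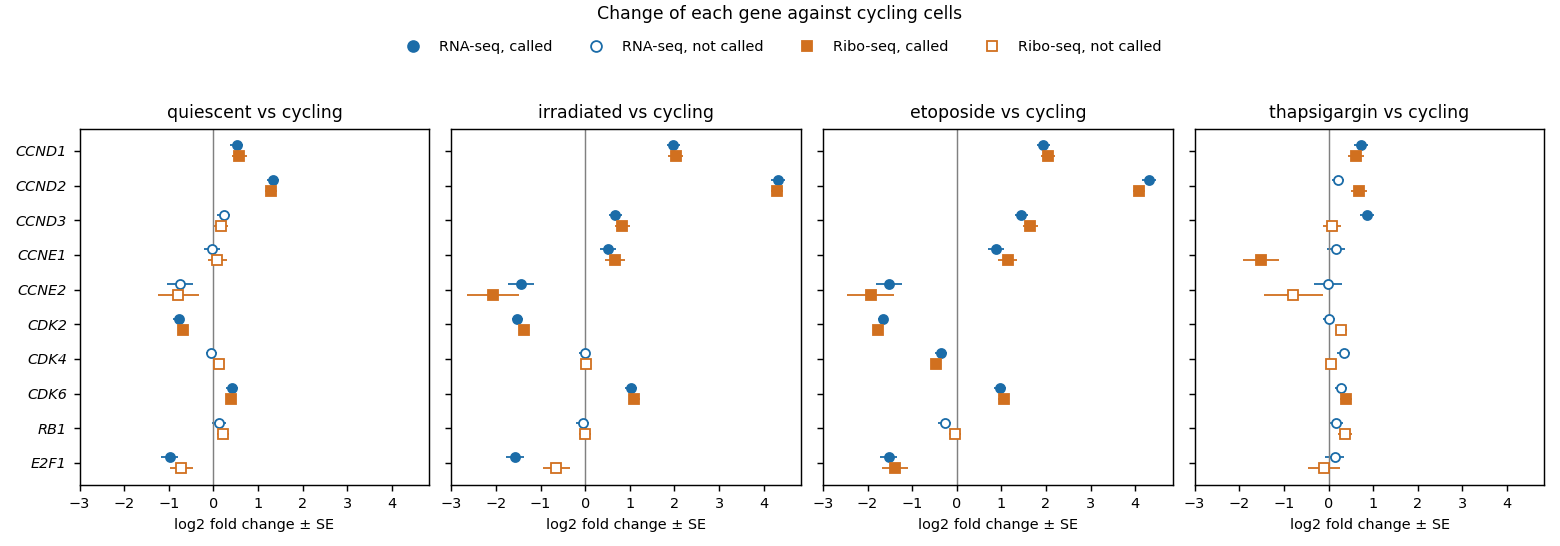
Log2 fold change ± SE of each gene against cycling cells, in RNA-seq (circles) and Ribo-seq (squares), with filled symbols where the gene was called. In both senescent states the D-type cyclins, CCNE1 and CDK6 lie to the right and CCNE2, CDK2 and E2F1 to the left, with CCND2 at 4.33 and 4.30 in RNA-seq, and with thapsigargin most symbols lie within 1 of 0.

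Senescent cells also differed from quiescent cells, which are arrested without DNA damage. In irradiated cells CCND1, CCND2, CCND3, CCNE1 and CDK6 mRNA was higher and CDK2 and E2F1 lower than in quiescent cells, 7 of 10 called against 18.8% of all genes (9.03% higher and 9.73% lower). In etoposide cells all 10 were called, 5 higher and 5 lower, against 41.8% (21.1% higher and 20.7% lower). The D-type cyclins showed the sizes: CCND1 was higher by 1.46 ± 0.13 after irradiation and 1.42 ± 0.13 after etoposide, and CCND3 by 0.44 ± 0.13 and 1.22 ± 0.13 (adjusted p = 7.5e-06, 3.0e-06, 0.027 and 9.8e-06). The counts fell to 4 of 10 without irradiated replicate 2 or 3, and to 6 of 10 without etoposide replicate 3. Footprints gave 4 higher and 1 lower after irradiation, against 14.6% (6.93% higher and 7.64% lower), and 5 higher and 2 lower after etoposide, against 35.4% (19.2% higher and 16.2% lower).

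Some of these calls were lost when single libraries were left out: for irradiated cells, those of CCND3, CCNE1 and E2F1. CCND3 was lost without quiescent replicate 3 or irradiated replicate 2 or 3 (0.31 to 0.44, adjusted p from 0.072 to 0.11). CCNE1 (0.55 ± 0.16, adjusted p = 0.032) was lost without quiescent replicate 2 or 3 or any irradiated library (0.47 to 0.60, adjusted p from 0.061 to 0.11). E2F1 (-0.59 ± 0.18, adjusted p = 0.037) was lost without quiescent replicate 2 or any irradiated library (-0.66 to -0.40, adjusted p from 0.069 to 0.16). In footprints CCND3 (0.67 ± 0.16, adjusted p = 0.014) was lost without quiescent replicate 2 (0.57, adjusted p = 0.067) or irradiated replicate 3 (0.56, adjusted p = 0.074). For etoposide cells they were CCNE2, CDK4 and E2F1, besides RB1 above. CCNE2 (-0.77 ± 0.27, adjusted p = 0.034) was lost without quiescent replicate 2 or 3 or etoposide replicate 2 or 3 (-0.85 to -0.51, adjusted p from 0.058 to 0.14). CDK4 (-0.31 ± 0.12, adjusted p = 0.047) was lost without quiescent replicate 1 or 2 or any etoposide library (-0.34 to -0.21, adjusted p from 0.068 to 0.19). E2F1 (-0.55 ± 0.18, adjusted p = 0.025) was lost without quiescent replicate 2 or etoposide replicate 1 or 3 (-0.57 to -0.35, adjusted p from 0.052 to 0.14).

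The senescent states were compared directly with each other. In RNA 2 of the 10 genes differed, CCND3, lower after irradiation, and CDK4, higher by 0.34 ± 0.12 (adjusted p = 0.049), where 22.6% of all genes did (9.68% higher and 12.9% lower). The CDK4 difference lost its call without any one of the 6 libraries (0.26 to 0.38, adjusted p from 0.077 to 0.20), which leaves 1 gene, CCND3. In footprints 3 of 10 differed, CCND3, CDK4 and CDK2 as given above, against 21.7% (7.78% higher and 13.9% lower). CCND1, CCND2 and CDK6 differed by 0.04 ± 0.13, 0.03 ± 0.11 and 0.07 ± 0.12 in RNA (adjusted p = 0.86, 0.89 and 0.72).

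Translational efficiency, the ratio of footprints to mRNA, was tested for each gene as an interaction of assay and state. In edgeR, 0 of the 10 genes were called in quiescent, irradiated or etoposide cells against cycling, where 0.00%, 0.00859% and 0.0602% of 11637 genes were called (0.00859% higher and 0.00% lower after irradiation, 0.0258% higher and 0.0344% lower after etoposide). At an unadjusted p under 0.05 the counts were 0, 1 and 0 of 10, where 3.54%, 6.40% and 3.88% of all genes passed; the 1 was E2F1 after irradiation (0.90 ± 0.35, adjusted p = 0.60). DESeq2 also called 0 in each. The ratio of mean footprint to mean mRNA CPM for CCND2 was 0.214 in cycling, 0.208 in quiescent, 0.210 in irradiated and 0.185 in etoposide cells, although its mRNA moved about 20.1-fold. For CCND1 it was 0.537, 0.559, 0.558 and 0.577, and for CDK6 0.419, 0.412, 0.438 and 0.446. A call needs a large change here, since the SE of these log2 ratios was 0.15 to 0.66 after irradiation. In the other comparisons (irradiated or etoposide with quiescent, and with each other) edgeR and DESeq2 called 0 of the 10, where edgeR called 0.0172%, 0.0430% and 0.00% of all genes. At an unadjusted p under 0.05 they were 0, 1 and 1 of 10, against 2.65%, 6.79% and 5.21% of all genes.

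With thapsigargin 2 of the 10 ratios were called, both lower, where 20.8% of all genes were called (8.89% higher and 11.9% lower). CCND3 changed by -0.78 ± 0.26 (adjusted p = 0.040) and CCNE1 by -1.67 ± 0.44 (adjusted p = 0.0097), against a median of -0.12 over all genes. The CCND3 ratio went from 0.946 in cycling to 0.550, since mRNA was higher and footprints were not. The CCND3 call was lost without either cycling RNA-seq library, cycling Ribo-seq replicate 1 or 3, or replicate 2 of either thapsigargin assay (-0.83 to -0.51, adjusted p from 0.074 to 0.19). It was also lost when RNA-seq and Ribo-seq libraries of the same number were paired as if from 1 lysate (-0.75, adjusted p = 0.10), while that of CCNE1 was kept (-1.65, adjusted p = 0.040). CCNE1, with its 6 and 2 footprint counts, was lost without thapsigargin Ribo-seq replicate 2 (-1.04, adjusted p = 0.14). CCNE2, not called with all libraries, was called at -4.28 when that same library was left out. Summed fibroblast marker footprints were also lower in these libraries, 13256 to 13920 CPM against 41305 to 44417 CPM in cycling cells, and the part of this shift in the values above was not tested.

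**Figure D3:**
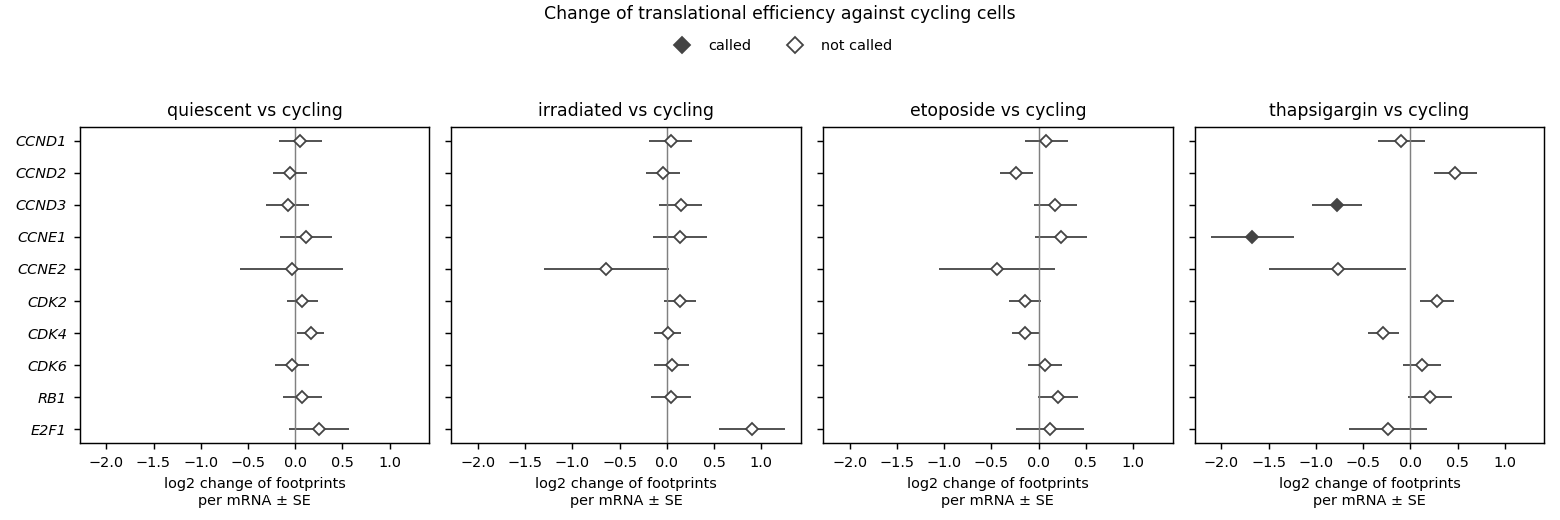
Log2 change ± SE of footprints per mRNA against cycling cells for each gene, with filled symbols where the change was called. In quiescent, irradiated and etoposide cells no symbol is filled, and with thapsigargin CCND3 at -0.78 and CCNE1 at -1.67 are.

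Around these 10 genes, the genes that E2F factors switch on fell almost as a block. Of 25 G1/S target genes, 23 fell after irradiation and 22 after etoposide, where 18.8% and 17.8% of all genes were called lower. Their medians were -1.57 and -1.68 against 0.03 and 0.00 over all genes tested. In quiescent cells 16 fell, against 10.4% of all genes, with a median of -0.74. MYBL2, a transcription factor, changed by -3.76 ± 0.24 after irradiation and -4.42 ± 0.24 after etoposide, and TK1, thymidine kinase of the salvage pathway, by -3.84 ± 0.24 after etoposide and -1.61 ± 0.22 in quiescent cells (adjusted p = 1.4e-07, 2.6e-08, 6.0e-08 and 0.00078). ORC1, part of the origin recognition complex, changed by -3.32 ± 0.23 after irradiation (adjusted p = 3.1e-07). Not called were UNG and SLBP in both senescent states and PCNA after etoposide. The quiescent count of 16 was 9 without cycling replicate 1.

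Genes of mitosis went further down than the G1/S genes. All 15 of the G2/M list fell in both senescent states (18.8% and 17.8% of all genes were called lower), with medians of -3.27 and -3.90. In quiescent cells 14 of 15 fell, against 10.4%, with a median of -1.21; without cycling replicate 1 the latter count was 9. CDC20, an activator of the anaphase-promoting complex, changed by -3.70 ± 0.21 after irradiation and -4.46 ± 0.22 after etoposide (adjusted p = 8.8e-08 and 1.1e-08). MKI67, the proliferation marker, changed by -4.60 ± 0.48 after etoposide (adjusted p = 8.0e-06) and was the gene not called in quiescent cells.

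The CDK inhibitors split. CDKN1A, which encodes p21, had 777 to 826 CPM in cycling, 2439.7 to 2869.9 in irradiated and 2873 to 3190.3 CPM in etoposide RNA-seq libraries. It rose by 1.69 ± 0.16 and 1.94 ± 0.16 (adjusted p = 3.2e-06 and 7.8e-07), and in quiescent cells its mRNA change of 0.43 ± 0.15 was not called (adjusted p = 0.073). Its footprints rose there by 0.42 ± 0.12 (adjusted p = 0.023), a call lost without cycling replicate 2 or 3 or quiescent replicate 3 (0.30 to 0.42, adjusted p from 0.068 to 0.081). CDKN2B, which encodes p15, rose in all 3 arrested states, by 1.31 ± 0.14, 1.17 ± 0.14 and 1.02 ± 0.14 (adjusted p = 0.00021, 2.3e-05 and 6.6e-05). CDKN2A, the locus of p16 and p14ARF, rose in quiescent (0.91 ± 0.22, adjusted p = 0.014) and irradiated cells (0.82 ± 0.22, adjusted p = 0.011) and was not called after etoposide in RNA (0.41 ± 0.22, adjusted p = 0.17). The etoposide mRNA change was called with both strands counted (0.63, adjusted p = 0.044) and when only etoposide and cycling cells were fitted (0.40, adjusted p = 0.041), and CDKN2A footprints rose after etoposide (1.06 ± 0.28, adjusted p = 0.010). Both CDKN2A mRNA calls were lost without either cycling library (0.81 to 0.93, adjusted p from 0.065 to 0.12). CDKN2C, which encodes p18, fell at the mRNA level in every state, by 3.01 ± 0.19 after irradiation and 3.44 ± 0.19 after etoposide (adjusted p = 1.3e-07 and 2.6e-08). Its footprints were not called in quiescent cells (-0.49 ± 0.19, adjusted p = 0.093) or with thapsigargin (0.15 ± 0.24, adjusted p = 0.66). CDKN1B, which encodes p27, fell at the mRNA level after irradiation (-0.63 ± 0.16, adjusted p = 0.0079) and etoposide (-1.12 ± 0.16, adjusted p = 0.00013). The first call was lost without cycling replicate 2 (-0.58). Its footprints were not called after irradiation (-0.22 ± 0.10, adjusted p = 0.092) and fell after etoposide (-0.95 ± 0.10, adjusted p = 8.0e-06). With thapsigargin CDKN1B mRNA fell (-0.54 ± 0.18, adjusted p = 0.039) and footprints rose (0.90 ± 0.11, adjusted p = 3.7e-05). That mRNA call was lost when only the 2 states were fitted (-0.51, adjusted p = 0.15). It was also lost without cycling replicate 1 (-0.59), cycling replicate 2 (-0.50) or thapsigargin replicate 2 (-0.32). In all, 3 of 7 inhibitor mRNAs rose and 2 fell after irradiation, and 2 rose and 3 fell after etoposide. Of all genes 16.2% were called higher and 18.8% lower after irradiation, and 16.8% and 17.8% after etoposide. The count of 2 that fell was 1 without cycling replicate 2.

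Among the other pocket proteins, E2Fs and their DP partners, 6 of 11 fell and 2 rose after irradiation, and 7 fell and 1 rose after etoposide. The shares of all genes called lower were 18.8% and 17.8%, and those called higher 16.2% and 16.8%, so the few rises are near the background. None was left among those that rose after irradiation without either cycling library or irradiated replicate 1, 1 without irradiated replicate 3, and none after etoposide without any single library. RBL1, encoding the pocket protein p107, fell by 1.44 ± 0.20 and 1.74 ± 0.20 (adjusted p = 0.00012 and 2.2e-05), and E2F8, a repressor, by 3.06 ± 0.42 and 3.59 ± 0.43 (adjusted p = 9.3e-05 and 2.6e-05). RBL2, encoding p130, the pocket protein of resting cells, was not called after irradiation (0.12 ± 0.11, adjusted p = 0.43) and changed by -0.41 ± 0.11 after etoposide (adjusted p = 0.012), a call lost without cycling replicate 2 (-0.36, adjusted p = 0.10) or etoposide replicate 2 (-0.35, adjusted p = 0.056). In quiescent cells TFDP1, a DP partner, was the gene of this list called (-0.38 ± 0.10, adjusted p = 0.016). Its call was lost without either cycling library (-0.40 and -0.37). RBL1 was not called there (-0.63 ± 0.20, adjusted p = 0.051). It was called with DESeq2 (adjusted p = 0.022) and in edgeR without the thapsigargin libraries (adjusted p = 0.042).

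E2F7 stood out with thapsigargin. This repressor of E2F targets had 31.1 and 43.1 CPM in the cycling and 225 to 227 CPM in the thapsigargin RNA-seq libraries, a rise of 2.60 ± 0.21 (adjusted p = 2.9e-06). It fell by 0.84 ± 0.18 after irradiation (adjusted p = 0.0029) and by 1.03 ± 0.18 after etoposide (adjusted p = 0.00063); the irradiation call was lost without cycling replicate 1 (-0.58, adjusted p = 0.075). Of the 25 G1/S targets only CDC6, a replication licensing factor, rose with thapsigargin (1.602 ± 0.24, adjusted p = 0.00044), and the median of the list was -0.05, against -0.03 over all genes.

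Of 15 genes that activate or degrade cyclin-CDK complexes, 2 were higher and 4 lower after irradiation and 1 higher and 5 lower after etoposide, a share near the 35.0% and 34.6% of all genes called. The higher calls were all lost after irradiation without either cycling library or irradiated replicate 1 or 3, and after etoposide without either cycling library or etoposide replicate 2. CKS2, a CDK-binding subunit, fell by 1.595 ± 0.16 and 1.32 ± 0.16 (adjusted p = 8.3e-06 and 3.7e-05), and CDC25A, the phosphatase that activates CDK2, by 1.65 ± 0.16 after irradiation (adjusted p = 5.8e-06). SKP2, which targets p27 for degradation, fell with thapsigargin (-1.65 ± 0.17, adjusted p = 2.1e-05). Of 14 genes upstream of cyclin D, 2 rose and 2 fell after irradiation and 1 rose and 3 fell after etoposide, with medians of 0.00 and 0.13; this is no larger a share than the 35.0% and 34.6% of all genes called. Without either cycling library these were 1 and 1 after irradiation and 0 that rose after etoposide, and 1 rose without irradiated replicate 1 or 3. KLF4, a transcription factor, fell by 0.79 ± 0.20 and 1.02 ± 0.20 (adjusted p = 0.0081 and 0.0015) and rose by 2.68 ± 0.23 with thapsigargin (adjusted p = 4.3e-06). The irradiation call of KLF4 was lost without cycling replicate 2 (-0.69, adjusted p = 0.071).

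**Figure D4:**
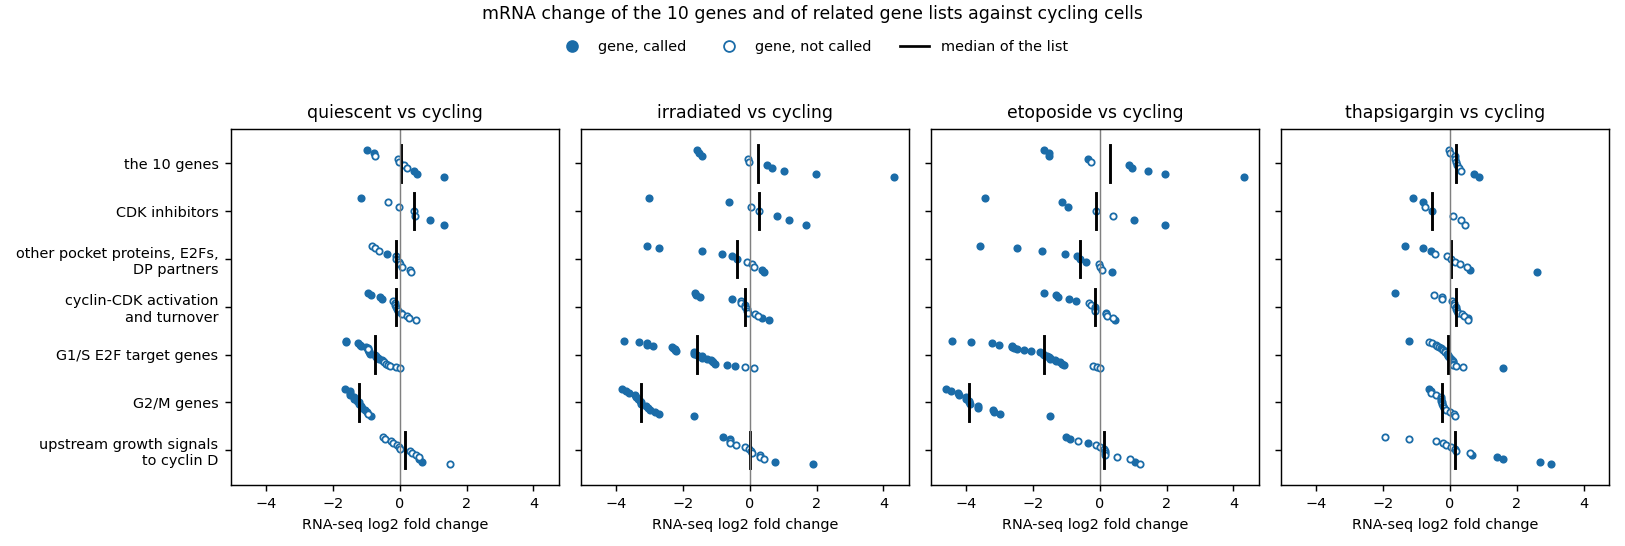
RNA-seq log2 fold change against cycling cells of each gene in the group of 10 and in 6 related lists, filled where called, with a bar at each list's median. The G2/M list lies farthest left in the senescent states (medians -3.27 and -3.90), the G1/S list next (-1.57 and -1.68), and the 10 genes spread to both sides.

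The markers of other cell types were low throughout, but some moved with the senescent states. VWF, an endothelial marker, was at 0.585 to 0.728 CPM in cycling and 1.81 to 2.20 CPM in irradiated RNA-seq libraries (1.65 ± 0.47, adjusted p = 0.014), and PTPRC, a blood cell marker, at 0.00 to 0.110 CPM in cycling and 0.703 to 0.739 CPM in etoposide libraries (3.44 ± 0.88, adjusted p = 0.0084). The VWF call was lost without either cycling library (1.48 and 1.80, adjusted p = 0.13 and 0.057) and the PTPRC call without cycling replicate 2 (2.68, adjusted p = 0.079). Without TMM scaling, the 10 markers of other cell types summed to 1.09 to 1.31 CPM in cycling and 2.18 to 2.57 CPM in irradiated RNA-seq libraries. In etoposide libraries the sum was 2.97 to 3.81 CPM. Of the 10, 4 passed the filter on low counts. Summed fibroblast markers were 12803 to 18013 CPM in cycling, 11378 to 11743 in irradiated and 11403 to 13119 CPM in etoposide RNA-seq libraries. In Ribo-seq they were 41305 to 44417 CPM in cycling, 27018 to 29641 in irradiated and 35907 to 37309 CPM in etoposide libraries. After irradiation 6 of the 10 fell and 2 rose in footprints, against 22.5% lower and 17.3% higher of all genes. The rises are thus near the background, and their count of 2 was 1 without cycling replicate 1 or 2 or irradiated replicate 2. With thapsigargin 9 of the 10 fell in footprints, against 24.4% of all genes. In mRNA 7 fell, against 12.8%, and fewer when any single library was left out. The part of these shifts in the changes above was not tested.

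Across all 27 libraries, with each assay centred on its own mean, the gene most like CCND1 in log2 CPM was CDKN1A (Pearson r = 0.975) and the gene most like CCND2 was MDM2, the p53 regulator (r = 0.972). CDK2 was closest to TK1 (r = 0.984), CDK6 to USP53 (r = 0.957), CCNE1 to RHOC (r = 0.933), CCND3 to GYS1 (r = 0.927) and RB1 to SMARCAD1 (r = 0.922). The closest genes to CCNE2, E2F1 and CDK4 were TDP1 (r = 0.913), NCAPH2 (r = 0.912) and DDIT4 (r = 0.897). Within the group of 10, CCND1 and CCND2 (r = 0.957) and CCND2 and CDK6 (r = 0.946) ran closest together, and CCND2 and CDK2 ran most in opposite directions (r = -0.949). These values describe libraries that share states and preparation, so no test goes with them.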

How the data were processed

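The deposited values are raw read counts per gene in the layout of STAR's gene count output, with 3 strand columns per library. Per the submitters' processing notes, bcl2fastq, STAR 2.7.10b and DESeq2 1.36.0 were used with hg38; their roles, the annotation and the trimming are not given in the sources used here. Per the labels' protocols, a cycloheximide lysate was split between RNA-seq (a stranded kit) and RNase I digestion, for which the labels give 40 min and the series text 20 min, with gel selection of footprints of 25 to 40 nt. RNA-seq counts came from column 4 and Ribo-seq counts from column 3; the opposite strand held 3.56 to 10.7% of counts. The deposited tables list 62703 genes in 15 files and 60664 in 12; the 60534 shared IDs were used, 60461 of them with a symbol, and 19144 protein-coding genes in RefSeq (GRCh38.p14). The summary lines of each file name no gene and were left out throughout: unmapped reads (1.35 to 40.6% of a library), multimapped reads (9.43 to 66.9%), ambiguous reads (1.26 to 6.91%) and reads outside genes (0.777 to 3.96%). Reads shared with gene copies are therefore missing.

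Tests used edgeR 4.0.16 in R 4.3.3 (quasi-likelihood F test, robust, TMM within each assay, filterByExpr, all 5 states in a fit, two-sided, Benjamini-Hochberg over 13194 genes in RNA-seq, 11687 in Ribo-seq and 11637 for translational efficiency). The biological coefficient of variation was 0.159, 0.169 and 0.161. Replicates of each state differed by more than sampling noise (chi-square over its degrees of freedom was 1.96 to 133). The procedure was checked on simulated counts. The 10 genes and the related lists were chosen with earlier results of these data known, so no list counts as independent evidence. Named were the 10 genes, CDKN1A, CDKN1B, CDKN2A, CDKN2B, RBL1, RBL2 and E2F7, the 2 called genes with the largest mRNA change per list and comparison with cycling cells, and the most similar gene of each member; genes not called in a list are named where they are few, after their values were seen. A gene that this rule names is not reported here. Alternatives were DESeq2 1.42.0, RLE scaling, no filter, all gene types, both strands, a replicate block, only the 2 states compared, no thapsigargin libraries, and each library left out in turn.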

Additional observations from a re-analysis of the deposited data

Results flagged for a closer look

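Irradiated and etoposide-treated senescent cells differed in 5 results among the 10 genes, each tested as the difference between both changes from cycling cells, which equals the direct comparison of the senescent states. They are 2 of 10 genes in RNA-seq and 3 of 10 in Ribo-seq, near the 22.6% and 21.7% of all genes called. CCND3, the cyclin D3 gene, was lower after irradiation than after etoposide by a log2 difference of -0.78 in mRNA and of -0.82 in footprints, with 3 of 3 irradiated libraries below 3 of 3 etoposide libraries in both assays (edgeR adjusted p = 0.00085 and 0.0034). The CCND3 call was kept when any single library was left out.

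CDK4 was higher after irradiation by 0.34 in mRNA and by 0.48 in footprints (edgeR adjusted p = 0.049 and 0.00078), again with no overlap between the libraries. The mRNA difference lost its call without any one of the 6 libraries (adjusted p from 0.077 to 0.20); the footprint difference kept it. CDK2 footprints were higher after irradiation by 0.40 (adjusted p = 0.028), a call lost without irradiated replicate 1 or 3 or any etoposide library (adjusted p from 0.054 to 0.14). The part of library preparation in these differences was not tested.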

How the results depend on the processing

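Among the 10 genes and 7 comparisons, 29 of 43 calls in RNA-seq and 28 of 39 in Ribo-seq held in every alternative, both calls of translational efficiency were lost in some, and no called value changed sign. Of the 126 results not called, 64 changed sign in some alternative. Results not called were called in some alternative for 2 of 27 in RNA-seq, 12 of 31 in Ribo-seq and 1 of 68 in translational efficiency. For quiescent against cycling Ribo-seq, DESeq2 called 6 of the 10 genes in place of 4. When only the 2 states compared were fitted, the number of the 10 genes called went from 5 to 3 for quiescent against cycling RNA-seq, from 7 to 4 and from 10 to 6 for irradiated and etoposide against quiescent RNA-seq, from 4 to 0 for thapsigargin Ribo-seq, and from 2 to 0 for thapsigargin translational efficiency. For irradiated against etoposide RNA-seq it was 1 in place of 2 with DESeq2, RLE scaling, no filter, all gene types, both strands, the replicate block, and without the thapsigargin libraries. Leaving out 1 library gave 2 to 4, 1 to 2, 4 to 8, 6 to 9 and 1 to 1 genes in RNA-seq (quiescent and thapsigargin against cycling, irradiated and etoposide against quiescent, irradiated against etoposide), 2 to 4 in quiescent and 2 to 4 in thapsigargin Ribo-seq, and 1 to 2 in thapsigargin translational efficiency.

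The labels describe a lysate divided between the assays but do not say that a number marks 1 lysate, and by correlation the numbers were not taken to pair libraries: deviations of same-numbered libraries of different states correlated above 0.1 in 10 of 23 RNA-seq and 7 of 26 Ribo-seq pairs, and those of RNA-seq and Ribo-seq libraries of 1 state in 7 of 13 pairs with the same number and 2 of 24 with other numbers, a hint that some numbers do mark a shared lysate; 6 of 9 RNA-seq libraries correlated best with the footprint library of their own number. Deviations were taken from the mean of each state, so those of its 2 or 3 libraries cancel out and the pairs are not independent. A positive correlation for same numbers thus lowers those for other numbers, and the part of this in the counts was not tested. With the replicate block, 15 of 21 counts of called genes were as before. The others became 8, 9, 6, 1 and 4 (from 9, 10, 7, 2 and 5), and 1 (from 2) for thapsigargin translational efficiency.

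Over all genes, fitting only the compared states gave 853 calls in place of 2056 for quiescent and 1505 in place of 3242 for thapsigargin RNA-seq, 5993 in place of 3993 for etoposide and 4107 in place of 2533 for irradiated against etoposide Ribo-seq, and 1049 in place of 2420 for thapsigargin translational efficiency; without the thapsigargin libraries irradiated against quiescent Ribo-seq gave 2564 in place of 1703. Leaving out cycling RNA-seq replicate 1 gave 699 calls for quiescent cells. Groups of 2 or 3 libraries, and the shallow thapsigargin footprints, limit what small changes could be called.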
